A study of Mus musculus with 12 samples.

Results

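The T cell receptor complex and its coreceptors were followed in tumors of a mouse model that the labels write as K14-Cre;Brcaf/fTrp53f/f by means of 9 genes: the CD3 chains Cd3d, Cd3e and Cd3g, the zeta chain Cd247, the coreceptors Cd4, Cd8a and Cd8b1, and the kinases Lck and Zap70. The genes were listed by symbol for their place in the complex, and all 9 were found among the 750 genes of the deposited table. In this model Cre recombinase under the keratin 14 promoter deletes Brca1 and Trp53 in epithelium, and every tumor analysed here, the controls included, carried both deletions. Syngeneic FVB/129P2 females carried the transplanted tumors in a mammary fat pad until these measured between 150 and 300 mm3, and 3 tumors were analysed in each of 4 groups (12 tumors in all). Vehicle mice were given DMSO in saline by intraperitoneal injection and saline into the tumor. Olaparib mice were given the PARP inhibitor olaparib at 50 mg/kg daily, ADU-S100 mice were given the STING agonist ADU-S100 once, as 50 μg in 40 μl into the tumor, and combination mice were given both drugs. A drug that was not given was replaced by its vehicle. Tumors were frozen 3 days after the first dose, and 100 ng of RNA from a chunk of each was hybridized to color-coded probes of an nCounter immune panel and counted without amplification. The labels give each tumor a number, used here as its name, and they do not state whether tumors of different groups share a donor tumor, so the p-values below measure the spread between these tumors.

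A T cell recognizes a peptide on MHC through its alpha and beta chains, which have almost no signaling tail of their own. They are carried to the surface with the CD3 delta, epsilon and gamma chains and with a zeta chain dimer, whose cytoplasmic tyrosine motifs are phosphorylated by Lck, a kinase brought to the receptor by CD4 or CD8. Zap70 then binds the phosphorylated motifs and passes the signal on. CD4 binds MHC class II and marks helper and regulatory T cells, and CD8, a dimer of CD8 alpha and CD8 beta chains, binds MHC class I and marks cytotoxic T cells. The CD3 chains are close to restricted to T cells, whereas Cd247 and Zap70 are also used by NK cells, and some mouse dendritic cells carry CD4 or CD8 alpha. In tumor RNA of this kind, fewer T cells and less RNA of a gene per T cell cannot be told apart.

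Most of the 9 genes were measured near the lower end of the assay. The deposited values are normalized counts, namely probe counts multiplied by one scaling factor per tumor, and the counts before scaling could be recovered from the steps between low values. In each tumor, 99.87% or more of the values came within 0.01 of a whole count. The recovered counts of all 750 genes summed to between 106206 in the olaparib tumor 1517 and 1519471 in the vehicle tumor 1269, and the factors ran from 0.589 in the olaparib tumor 1521 to 10.5 in tumor 1517. The 30 genes with the lowest mean had a median of between 3 and 8 recovered counts in a tumor, which corresponds to a normalized count of between 4.12 (1521) and 31.4 (1517). In the 9 tumors outside the combination group, Cd3e had between 5 and 21 recovered counts, Cd8a between 4 and 13 and Cd8b1 between 3 and 10, so that part of these counts lay at the level of the lowest genes. Of the 9 genes, 8 reached a normalized count of 20 in at least 3 tumors and entered the tests with 681 other genes (689 in all). Cd8b1 reached it in 2 tumors and was not tested. Cd3e (6 tumors), Cd8a (4) and Zap70 (8) reached it in treated tumors and in no vehicle tumor, as did 60 of the 689 genes (8.71%), and passing the filter in this way by itself favours a difference from vehicle. Values at or below the median level of the 30 lowest genes were those of Cd8b1 in 1269, 1510 and 1512, of Cd3e in 1512, of Cd8a in 1506 and of Zap70 in 1521. The summed markers of epithelium (4 genes) lay between 11474 and 24422 normalized counts in the 12 tumors, and Ptprc, the pan-leukocyte gene CD45, had recovered counts in every tumor, between 37 (1517) and 515 (combination tumor 1539).

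The 3 CD3 genes lie side by side on mouse chromosome 9, and their start regions are shown because these genes correlated with each other more than the median pair on the panel. In the RefSeq annotation of GRCm38.p6, Cd3g and Cd3d start 1355 bases apart and point away from each other, and Cd3e starts 29180 bases from Cd3g on the same strand as Cd3g. Each window runs from 250 bases before the annotated start to 50 bases after it, 5′ to 3′ on the gene's strand, and capitals mark GGAA or its reverse complement TTCC, the core letters of the sites of ETS factors, a family that includes Ets1 of lymphocytes.
Cd3d, chr9:44981536-44981835, plus strand: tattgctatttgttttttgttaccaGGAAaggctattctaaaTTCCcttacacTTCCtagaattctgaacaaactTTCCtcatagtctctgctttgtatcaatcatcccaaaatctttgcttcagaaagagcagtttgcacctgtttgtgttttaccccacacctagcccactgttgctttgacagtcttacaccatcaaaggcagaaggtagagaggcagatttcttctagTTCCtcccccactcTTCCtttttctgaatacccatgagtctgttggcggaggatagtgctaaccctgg
Cd3g, chr9:44980382-44980681, minus strand: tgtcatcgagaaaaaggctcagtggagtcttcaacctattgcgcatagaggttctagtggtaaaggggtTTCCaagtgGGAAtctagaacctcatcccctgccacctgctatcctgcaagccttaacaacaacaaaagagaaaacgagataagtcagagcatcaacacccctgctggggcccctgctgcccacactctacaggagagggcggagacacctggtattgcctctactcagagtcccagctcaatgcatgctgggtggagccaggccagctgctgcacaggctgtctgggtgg
Cd3e, chr9:45009562-45009861, minus strand: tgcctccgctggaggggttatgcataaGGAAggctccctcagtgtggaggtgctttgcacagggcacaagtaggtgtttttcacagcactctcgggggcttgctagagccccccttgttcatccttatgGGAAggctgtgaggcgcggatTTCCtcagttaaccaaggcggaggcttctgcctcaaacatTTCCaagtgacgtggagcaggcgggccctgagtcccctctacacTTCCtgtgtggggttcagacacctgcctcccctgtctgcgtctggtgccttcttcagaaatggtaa
Lck is shown beside them because its levels did not follow the other 8 genes. It has separate start regions 15269 bases apart on the minus strand of chromosome 4, known as its distal and proximal promoters.
Lck distal, chr4:129573592-129573891, minus strand: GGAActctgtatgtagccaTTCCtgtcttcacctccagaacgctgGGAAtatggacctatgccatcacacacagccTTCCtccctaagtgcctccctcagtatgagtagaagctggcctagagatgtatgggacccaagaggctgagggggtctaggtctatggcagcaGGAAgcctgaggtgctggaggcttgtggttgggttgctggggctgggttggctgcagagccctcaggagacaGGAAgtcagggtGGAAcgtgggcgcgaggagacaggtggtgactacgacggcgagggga
Lck proximal, chr4:129558323-129558622, minus strand: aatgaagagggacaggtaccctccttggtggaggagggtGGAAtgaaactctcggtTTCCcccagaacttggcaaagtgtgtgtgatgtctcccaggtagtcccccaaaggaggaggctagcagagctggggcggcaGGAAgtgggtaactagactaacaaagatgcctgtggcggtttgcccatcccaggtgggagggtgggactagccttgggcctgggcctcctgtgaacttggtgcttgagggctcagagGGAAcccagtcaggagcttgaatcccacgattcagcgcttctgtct
The core GGAA was matched 6 times in the Cd3d window, 2 times in the Cd3g window, 5 times in the Cd3e window, 7 times in the distal Lck window and 4 times in the proximal one. At least 1 match was present in 96.0% of the 32841 mouse windows of this length, with a median of 3 matches, so its presence does not set these genes apart. The letters TGTGGT of the RUNX site were found in 2 of the 10 windows of the members and in 16.8% of all windows, AGATAA of the GATA site in 1 of the 10 (Cd3g) and in 11.2%, and CANNTG of the E-box in 10 of the 10 and in 72.3%. All motifs were read on both strands, and matches that overlap were each counted. Windows were given for 7 of the 9 genes and not for Cd4 and Cd8b1.

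On the log2 scale the CD3 chains had their highest group means in the combination group, whereas the mean normalized count of Cd3d was highest in olaparib tumors (90.2 against 65.6), through tumor 1517. For Cd3g, the gamma chain, normalized counts were 23.9, 29.7 and 18.7 in the vehicle tumors 1269, 1529 and 1536, and 60.8, 109 and 66.4 in the combination tumors 1251, 1270 and 1539. They were 65.5, 27.5 and 22.8 in the ADU-S100 tumors 1506, 1512 and 1513, and 35.1, 52.4 and 22.4 in the olaparib tumors 1510, 1517 and 1521. Every combination tumor was thus above every vehicle and every olaparib tumor, and of the ADU-S100 tumors 1506 alone reached the combination range. The fitted difference of Cd3g between combination and vehicle on the log2(normalized count + 1) scale was 1.64 ± 0.49 (SE, n = 3 per group), which is a 3.12-fold difference, with a limma p-value of 0.0062 before and 0.278 after Benjamini-Hochberg adjustment over 689 genes.

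Cd3e, the epsilon chain that pairs with both delta and gamma, also separated combination from vehicle tumors. Its normalized counts were 14.3, 19.3 and 6.23 in vehicle tumors and 29.2, 70.1 and 39.4 in combination tumors, in the same order of tumors as for Cd3g. In ADU-S100 tumors Cd3e was at 28.5, 9.82 and 18.5, all below the lowest combination tumor, and in olaparib tumors it was at 29.2, 52.4 and 10.6, a range that overlapped the combination group. The gap to ADU-S100 is narrow, since the 28.5 of tumor 1506 rests on 10 recovered counts and the 9.82 of tumor 1512 on 5. The fitted difference against vehicle was 1.75 ± 0.64 (SE; limma, unadjusted p = 0.0192, adjusted p = 0.456). Cd3d, the delta chain, was at 27.3, 50.5 and 21.5 in vehicle tumors and at 51.0, 97.3 and 48.4 in combination tumors, and the groups overlapped in the vehicle tumor 1529. Its highest values outside the combination group were 209.6 in the olaparib tumor 1517, which rests on 20 recovered counts, and 96.8 in the ADU-S100 tumor 1506, which rests on 34. The other ADU-S100 tumors had 43.2 and 45.7, and the other olaparib tumors 48.7 and 12.4. The fitted difference of Cd3d against vehicle was 0.98 ± 0.83 (SE; limma, adjusted p = 0.946), within the spread between tumors.

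Cd247, which encodes the zeta chain, did not have its highest level in the combination group. Its normalized counts were 18.4, 35.7 and 13.9 in vehicle, 91.1, 51.1 and 24.3 in ADU-S100, 62.3, 199 and 19.4 in olaparib and 31.6, 54.4 and 34.4 in combination tumors. The olaparib group spanned from 19.4 in the most deeply counted of its tumors to 199 in tumor 1517, the least counted of the 12. By group means on the log2 scale the order was vehicle (4.46), combination (5.32), ADU-S100 (5.63) and olaparib (5.99), with SDs between 0.41 and 1.65, and 0 of the 5 group comparisons of Cd247 had an adjusted limma p below 0.58. The place of the combination in this order rests on single tumors. Its difference from olaparib turned from -0.67 to 0.15 without tumor 1517, and that from ADU-S100 turned from -0.31 to 0.14 without tumor 1506.

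Among the coreceptors, Cd4 was higher than in every vehicle tumor with olaparib as well as in the combination. Normalized counts of Cd4 were 30.01, 49.1 and 25.6 in vehicle tumors, 108, 39.3 and 29.96 in ADU-S100 tumors, 138, 126 and 60.7 in olaparib tumors and 112, 129 and 107 in combination tumors. All combination and all olaparib tumors were above all vehicle tumors, while 2 of the 3 ADU-S100 tumors lay within the vehicle range. The combination values had the smallest spread of any group for Cd4 (116 ± 12.0, SD, n = 3). The fitted difference against vehicle was 1.75 ± 0.52 (SE) in the combination (limma, unadjusted p = 0.0063, adjusted p = 0.278) and 1.57 ± 0.52 with olaparib alone (unadjusted p = 0.0117, adjusted p = 0.577), and the combination exceeded olaparib by 0.18 ± 0.52 (adjusted p = 0.904), a difference smaller than its error. Foxp3, the transcription factor of regulatory T cells, which carry CD4, had between 6 and 17 recovered counts in vehicle tumors and between 15 and 22 in combination tumors, and its normalized counts overlapped (4.09 to 22.3 against 12.3 to 18.1).

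The CD8 genes had few counts in every group. Cd8a was at 6.82, 11.9 and 6.93 normalized counts in vehicle tumors, from 10, 8 and 10 recovered counts, and at 24.3, 35.4 and 14.8 in combination tumors, from 30, 43 and 18. ADU-S100 tumors had 17.1, 21.6 and 14.3, again all above vehicle, but from 6, 11 and 10 recovered counts, as few as in vehicle tumors. Olaparib tumors had 13.6, 41.9 and 7.66. The fitted Cd8a difference between combination and vehicle was 1.39 ± 0.57 (SE; limma, unadjusted p = 0.0318, adjusted p = 0.504). Cd8b1, which was too low to be tested, had 3, 6 and 8 recovered counts in vehicle tumors, 9, 4 and 8 in ADU-S100 tumors, 4, 6 and 10 in olaparib tumors and 15, 21 and 9 in combination tumors. Its recovered counts in combination tumors overlapped the range of the other 9 tumors only in tumor 1539.

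Lck, the kinase that starts receptor signaling, had overlapping levels in vehicle, ADU-S100 and combination tumors. Its normalized counts were 131, 128 and 92.8 in vehicle tumors, 148, 119.8 and 104 in ADU-S100 tumors and 99.6, 143 and 138 in combination tumors. Olaparib tumors had 79.9, 52.4 and 106, of which the value of 52.4 in tumor 1517 rests on 5 recovered counts. The difference of Lck between combination and vehicle was 0.11 ± 0.38 (SE; limma, adjusted p = 0.989), the smallest of the 8 tested genes, and its sign turned when all tumors were brought to one median (-0.09), under quantile normalization (-0.13) and under edgeR with TMM (-0.26). Zap70, the kinase that docks on the phosphorylated chains, showed the widest spread. Its normalized counts were 8.19, 17.8 and 11.1 in vehicle tumors, 197, 45.2 and 28.5 in ADU-S100 tumors, 58.4, 115 and 4.12 in olaparib tumors and 30.8, 64.3 and 31.98 in combination tumors. All ADU-S100 and all combination tumors were above all vehicle tumors, with fitted differences of 2.34 ± 1.03 (SE; limma, unadjusted p = 0.0443, adjusted p = 0.809) and 1.68 ± 1.03 (unadjusted p = 0.132, adjusted p = 0.739). In the ADU-S100 tumor 1506, where Zap70 had 69 recovered counts and 197 normalized counts, the NK cell receptor Ncr1 also had its highest normalized count (225, from 79 recovered counts). The part of NK cells in the Zap70 value of this tumor was not tested.

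**Figure D1:**
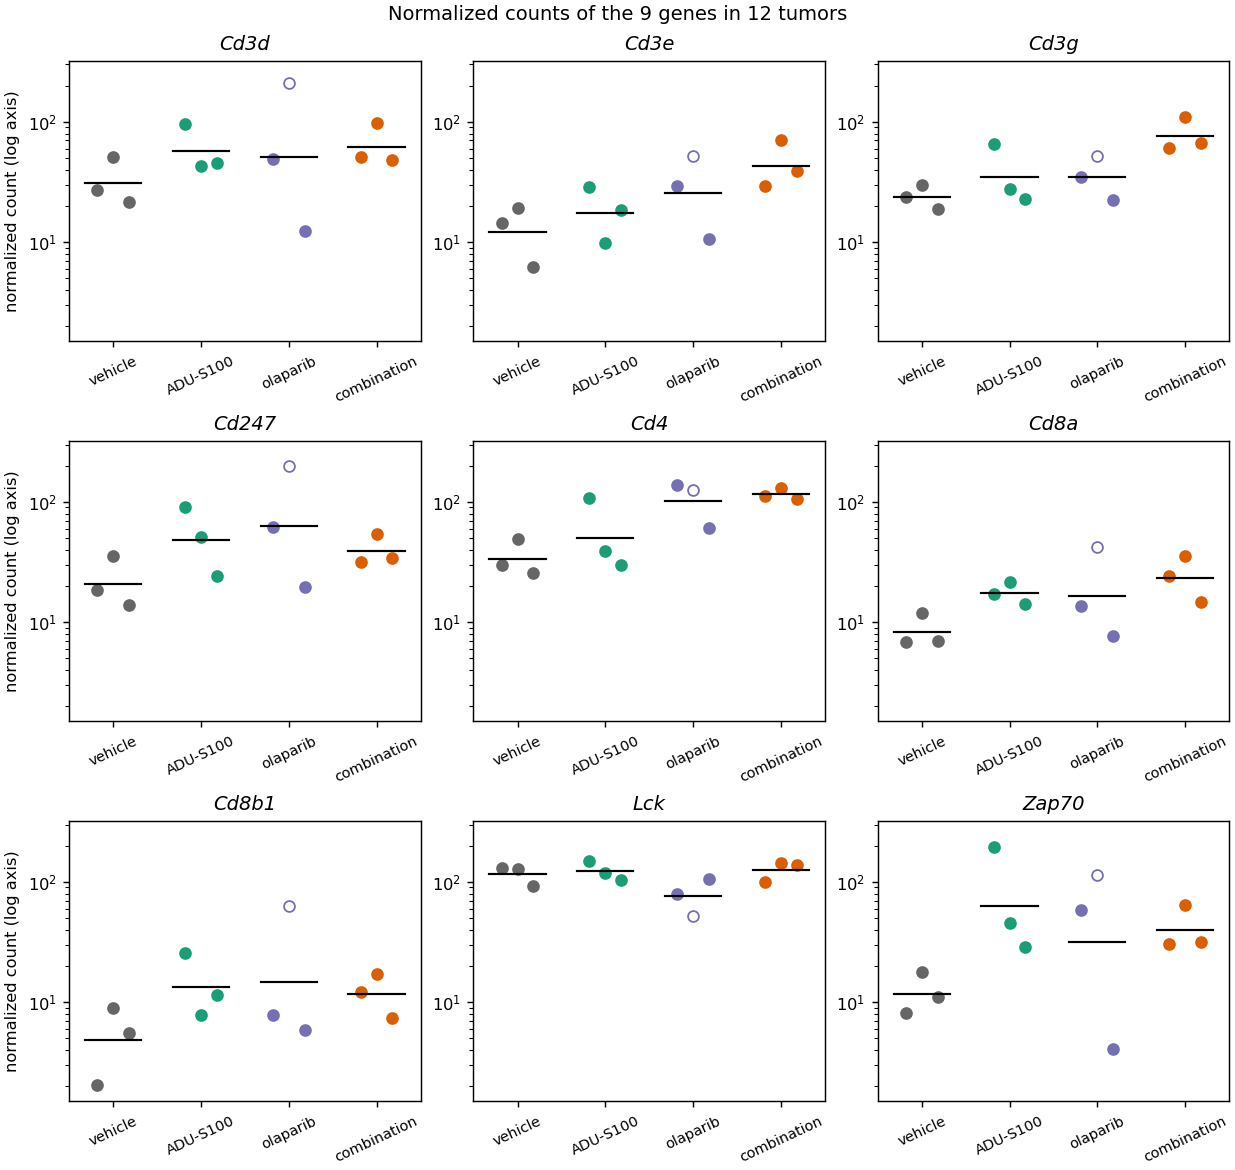
Normalized counts (log axis) of the 9 genes in the 3 tumors of each group, with a bar at the group mean of log2(normalized count + 1) turned back to the linear scale. The open circle is the olaparib tumor 1517, whose factor was 10.5. Combination points lie above all vehicle points for Cd3e, Cd3g, Cd4, Cd8a and Zap70, and Lck shows no such shift.

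Before scaling, the combination tumors held more counts of the CD3 genes than any other tumor. Cd3d, Cd3e and Cd3g together had 174, 335 and 188 recovered counts in the combination tumors 1251, 1270 and 1539 and between 30 and 96 in the other 9 tumors. Of the 9 genes, 6 (Cd247, Cd3d, Cd3e, Cd3g, Cd4 and Cd8a) had more recovered counts in every combination tumor than in any other tumor, against 12.4% of all 750 genes. The combination tumors were also counted deeply, with totals between 1339258 and 1491854, and the part of depth in these counts was not tested. Of the other tumors, the vehicle tumor 1269 (total 1519471) had 96 CD3 counts and the olaparib tumor 1521 (total 1392128) had 77. On normalized counts, 0 of the 9 genes kept every combination tumor above every other tumor, against 2.93% of the 750 genes. In each gene, ADU-S100 tumor 1506, olaparib tumor 1510 or olaparib tumor 1517 reached the combination range. Other tumors reached it in some genes, among them vehicle tumor 1529 for Cd3d and Cd8b1 and ADU-S100 tumor 1512 for Cd8a. For Lck the vehicle tumor 1269, with a factor of 0.682, did so too. Tumors 1506, 1510 and 1517 had factors of 2.85, 1.95 and 10.5, so that 1 count in them stood for more than in any combination tumor, where factors ran from 0.810 to 0.824. The part of the factor in this overlap was not tested.

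**Figure D2:**
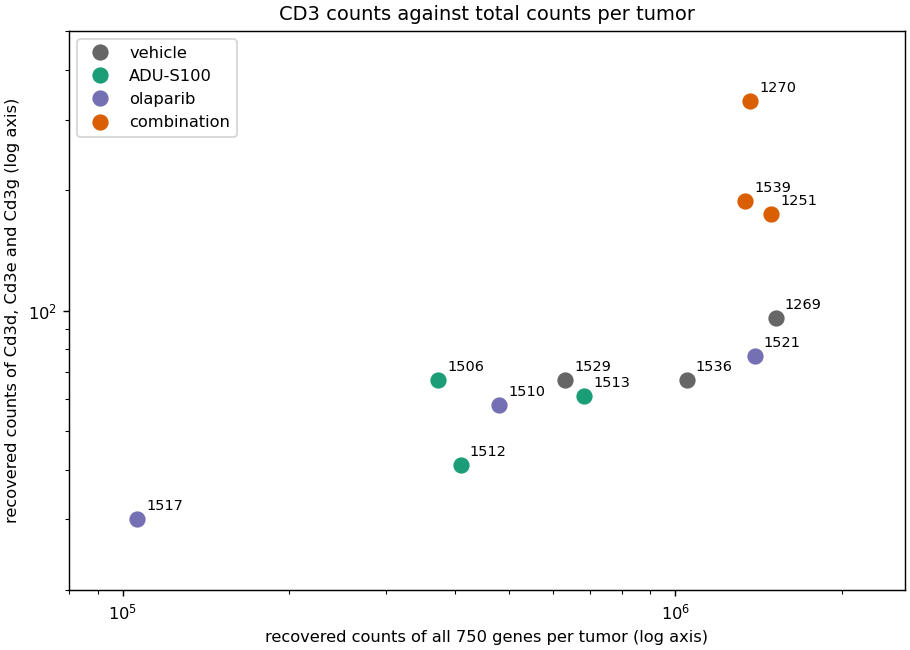
Recovered counts of Cd3d, Cd3e and Cd3g summed per tumor against the recovered counts of all 750 genes, both on log axes, with each of the 12 tumors named. The combination tumors hold 174 to 335 CD3 counts, and the vehicle tumor 1269 and the olaparib tumor 1521, of like total, hold 96 and 77.

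Of the 12 tumors, 6 had a factor below 1, namely the vehicle tumors 1269 and 1536, the olaparib tumor 1521 and the 3 combination tumors, and no ADU-S100 tumor was among them. Among these 6 tumors, 8 of the 9 genes (all but Lck) had a higher normalized count in every combination tumor than in the 3 others, against 31.9% of the 750 genes. A limma fit on these 6 tumors, a restriction chosen after the factors were seen, tested 580 genes, 7 of the 9 genes among them. Of these 7, Cd3e, Cd247 and Zap70 reached 20 in the combination tumors alone, as did 21 of the 580 genes (3.62%), which by itself favours a higher value in the combination, so that counts and medians over the 7 are descriptions and no support. Between combination and vehicle, the difference of Cd4 was 2.02 ± 0.28 (SE; limma, adjusted p = 0.0435), and it was the 1 gene of the 7 past the adjusted threshold of 0.05, against 2.76% of the 580 genes. Cd3g (1.80 ± 0.36, limma adjusted p = 0.0601), Zap70 (1.96 ± 0.42, adjusted p = 0.0636) and Cd3e (2.07 ± 0.51, adjusted p = 0.0876) missed it. The median over the 7 genes was 1.80, and over the 580 genes it was 0.44. With a single olaparib tumor left, 1521, the values against olaparib are given with no test. The 7 genes had a median difference of 1.72 between the combination and this tumor (all genes 0.48), under the same limit, and of 0.08 between this tumor and vehicle.

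Over all 12 tumors, none of the 8 tested genes passed the adjusted threshold of limma in any comparison, and neither did any other gene. Between combination and vehicle the fraction of the 689 genes that passed was 0% by limma, with 53 genes and 4 of the 8 at an unadjusted p below 0.05, and edgeR on the recovered counts called 0 genes, whether the authors' factors or TMM normalization were used. After the same adjustment the methods' t-test called 3 genes there, 0 of the 8 among them. The 4 genes were Cd3e, Cd3g, Cd4 and Cd8a, all higher in the combination, and 7.55% of all genes tested were higher at the same unadjusted threshold. With Zap70 they were also the 5 genes whose combination tumors all exceeded the vehicle tumors, against 18.4% of all genes tested. The 8 genes had a median difference of 1.52, from 0.11 (Lck) to 1.75 (Cd3e), beside a median of 0.21 over the 689 genes. Since Cd3e, Cd8a and Zap70 passed the filter only through treated tumors, these counts and the median are descriptions and no support for a difference from vehicle.

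Each drug alone was set against the same vehicle tumors, and the limit on Cd3e, Cd8a and Zap70 holds here too. In ADU-S100 tumors the 8 genes had a median difference of 0.72, from 0.08 (Lck) to 2.34 (Zap70), beside 0.44 over all genes, and the median was 0.33 without tumor 1506. It was 0.31 under median scaling, 0.26 by edgeR with TMM, 0.17 with the log2 factor as a covariate, 0.37 after background subtraction and -0.21 under quantile normalization, so that its direction depends on the scaling. Zap70 was the 1 gene of the 8 that was higher at an unadjusted limma p below 0.05, against 4.64% of all genes, and Cd8a and Zap70 were the 2 whose ADU-S100 tumors all exceeded the vehicle tumors, against 13.9%. In olaparib tumors the median difference was 0.97, from -0.60 (Lck) to 1.57 (Cd4), beside 0.45 over all genes. This median was 0.36 without tumor 1517 and 1.65 without tumor 1521, on either side of the combination's 1.52, and 0.62 under median scaling, 0.44 by edgeR with TMM, 0.18 under quantile normalization and 0.10 with the covariate. Cd4 was the 1 gene of the 8 that was higher at an unadjusted p below 0.05 (5.81% of all genes) and the 1 gene whose olaparib tumors all exceeded the vehicle tumors (3.77% of all genes). With each tumor left out, the olaparib difference of Lck ran from -0.83 to -0.33. After adjustment 0% of the genes passed in either comparison by limma and by edgeR, with 33 genes for ADU-S100 and 50 for olaparib at an unadjusted limma p below 0.05.

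The combination was also set against each drug, in comparisons that share the combination tumors. Against ADU-S100, the 8 genes had a median difference of 0.26 (all genes -0.22), which depended on single tumors: it was 0.03 without the combination tumor 1270, 0.50 without 1539, 0.11 without the ADU-S100 tumor 1513 and 0.43 without 1506. Over the other alternatives it ran from 0.07 (filter at 50) to 1.23 (covariate). Cd3g (1.11 ± 0.49) and Cd4 (1.18 ± 0.52) were the 2 genes of the 8 that were higher at an unadjusted limma p below 0.05, against 4.5% of all genes, and Cd3e (1.26 ± 0.64) was the 1 gene without overlap, against 10.4%. Its groups were separated only by 28.5 in tumor 1506, from 10 recovered counts, against 29.2 in tumor 1251. Zap70 and Cd247 were lower in the combination, by values within their spread (-0.66 ± 1.03 and -0.31 ± 0.76). Both signs turned without tumor 1506 (0.15 and 0.14) and with the covariate (0.76 and 0.80). Against olaparib, the median was 0.39 (all genes -0.15), and Cd3g (1.11 ± 0.49) was the 1 gene of the 8 that was higher at an unadjusted p below 0.05 (4.5% of all genes) and the 1 gene without overlap (11.0% of all genes). After adjustment 0% of the genes passed in either comparison by limma and by edgeR, with 63 and 50 genes at an unadjusted limma p below 0.05. Leaving out the olaparib tumor 1521 turned the median against olaparib to -0.11, leaving out 1517 raised it to 1.17, and leaving out the combination tumor 1270 gave 0.14, while the other alternatives over 12 tumors gave 0.22 (pseudocount of 10) to 1.42 (covariate).

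The interaction compares what ADU-S100 did in the presence and in the absence of olaparib. It had a median of -0.46 over the 8 genes and of -0.55 over the 689 genes, and 0% of the genes passed by limma or edgeR (75 genes, 0 of the 8 among them, at an unadjusted limma p below 0.05). Left-out tumors moved the median to -0.90 (1521), -0.71 (1529), -0.70 (1513), -0.27 (1536 or 1539), -0.04 (1506) and 0.24 (1517). Its sign also turned with the scaling, to 0.10 under median scaling, 0.84 under quantile normalization, 0.93 with the log2 factor as a covariate, 0.17 by edgeR with TMM and 0.52 after background subtraction. Cd3g (0.59 ± 0.69), Lck (0.63 ± 0.54) and Cd3e (0.25 ± 0.91) had positive values and Zap70 (-2.02 ± 1.46) and Cd247 (-1.85 ± 1.08) the most negative ones, none beyond the spread between tumors after adjustment. In limma's moderated F test over the 4 groups, Cd3g and Cd4 were the 2 genes of the 8 below 0.05 before adjustment, against 7.55% of all genes. After adjustment 0% of the genes passed by limma or edgeR (52 genes by limma at an unadjusted p below 0.05), and both genes had a limma adjusted p of 0.628.

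**Figure D3:**
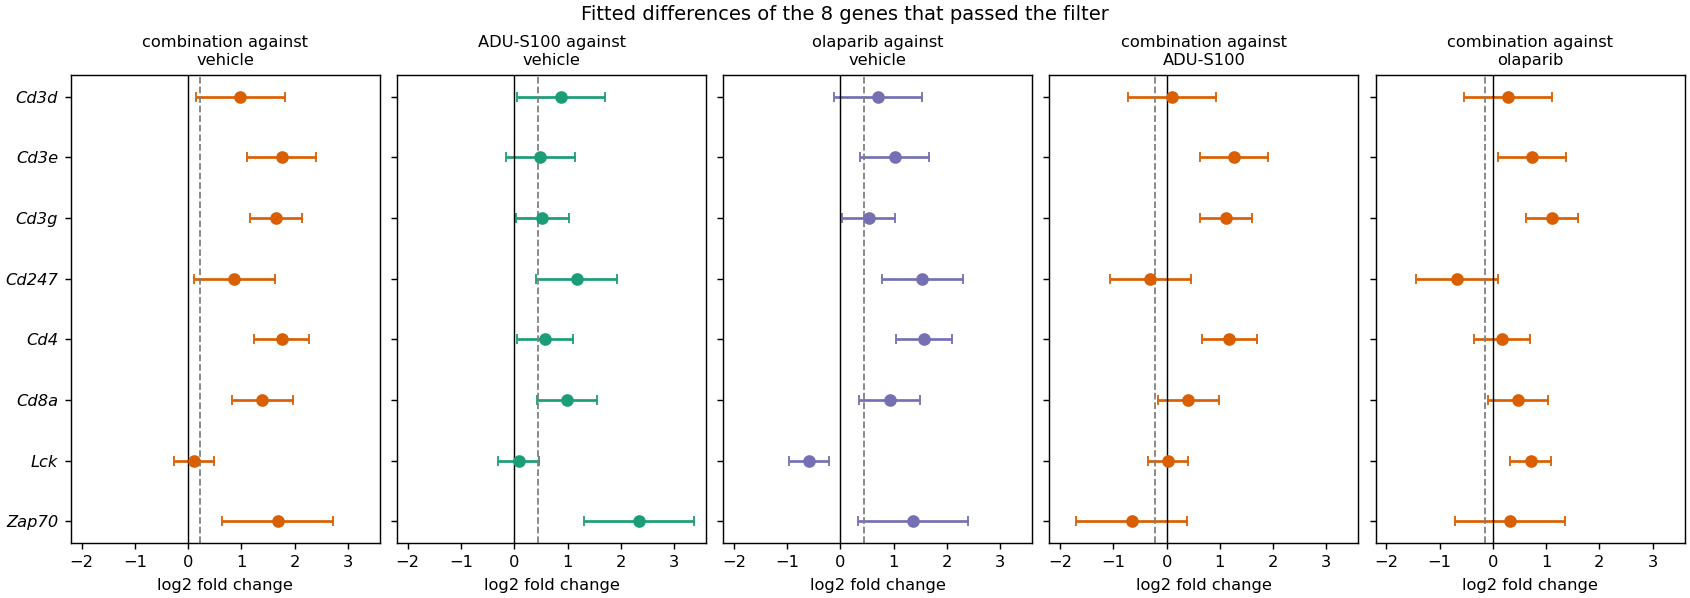
Fitted log2 differences of the 8 tested genes in 5 group comparisons, with bars of 1 standard error from the limma fit over 12 tumors. The dashed line is the median over all 689 genes and the solid line is 0. Cd3e, Cd3g and Cd4 lie at 1.64 to 1.75 between combination and vehicle, and Lck lies at 0.11.

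The mutual correlation of the genes was taken as a description of how far they track one quantity, such as T cell content. Over the 12 tumors, the 28 pairs that do not involve Lck had Pearson's r between 0.58 and 0.89 with a median of 0.77, while the 237016 pairs of all genes tested had a median of 0.30, and 26.1% of those reached 0.58. Cd3e and Cd3g had r = 0.89 (permutation p = 0.0001, adjusted over 36 pairs p = 0.00223) and Spearman's rho = 0.87 (permutation p = 0.00051, adjusted p = 0.00612), with r = 0.81 without the 2 tumors farthest from the median of Cd3e. For deviations from group means, r was 0.84 (exact permutation p = 0.0069 within groups, adjusted p = 0.025). Cd3d had a higher r with Cd247 (0.89) and Zap70 (0.89) than with the other CD3 chains Cd3e (0.80) and Cd3g (0.71), a contrast that was not tested. Cd4 had its highest r with Cd3e (0.83) and Cd3g (0.83) over tumors, and with Cd3g (0.90) and Zap70 (0.86) within groups. Cd8a had its highest r with Cd3d (0.86 over tumors, 0.88 within groups), and differences between these correlations were not tested. The median r of the 36 pairs was 0.69 over tumors and 0.77 within groups, beside 0.30 and 0.36 for all gene pairs, so that a test against r = 0 says little about these genes in particular.

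Lck shared no such pattern over the 12 tumors. Its 8 pairs had a median r of -0.21, from -0.43 with Cd8b1 to 0.18 with Cd3g, a median rho of 0.07, and 0 of them passed after adjustment. Without the 2 tumors farthest from the median of the other gene (of Lck, for the pair with Zap70), r ran from -0.45 with Cd3e to 0.57 with Cd8b1 and turned its sign in 6 of the 8 pairs, so that the sign of these correlations rests on those tumors. The genes of a tumor share its scaling factor, and the factor moved with many genes of the panel. On the log2 scale it correlated with Cd247 at r = 0.89 (rho = 0.88; permutation p = 0.0003 and 0.00033; r = 0.67 without the 2 tumors farthest from the median of Cd247), with Cd8b1 at 0.79, with Cd3d at 0.78 and with Zap70 at 0.74, but with Cd3g at 0.21, with Cd4 at 0.36, with Cd3e at 0.38 and with Lck at -0.58, while the median over all genes tested was 0.59. Without the 2 farthest tumors r was 0.48 for Cd8b1 and for Cd3d, below the 0.57 for Cd3g and 0.53 for Cd3e, so that the order of these genes rests on those tumors. It was 0.70 for Zap70, 0.57 for Cd8a, 0.32 for Cd4 and 0.39 for Lck. For deviations from group means the factor had r = 0.70 with Cd3g (exact permutation p = 0.0062 within groups, adjusted over 9 genes p = 0.0278), 0.74 with Cd3e, 0.62 with Cd4 and -0.55 with Lck, and between 0.85 (Cd8b1) and 0.95 (Cd3d) with the other 5 genes. The median of these values was 0.85 over the 9 genes and 0.69 over all genes tested. When all tumors were brought to one median, the median r of the 36 pairs fell to 0.38, and it was 0.44 when the level of the lowest genes was subtracted, so that the size of the mutual correlation depends on the scaling. By the mean log2 value of the 3 CD3 genes, the order of tumors was led by the combination tumor 1270 (6.52), the olaparib tumor 1517 (6.40) and the ADU-S100 tumor 1506 (5.85), followed by the combination tumors 1539 (5.68) and 1251 (5.52), and ended with the olaparib tumor 1521 (3.94) and the vehicle tumor 1536 (3.88). The combination tumors had a mean of 5.91 ± 0.53 for this value and the vehicle tumors one of 4.45 ± 0.56 (SD, n = 3), whereas olaparib (5.19 ± 1.23) and ADU-S100 tumors (5.08 ± 0.68) lay between them, and the olaparib tumors ran from 3.94 to 6.40.

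**Figure D4:**
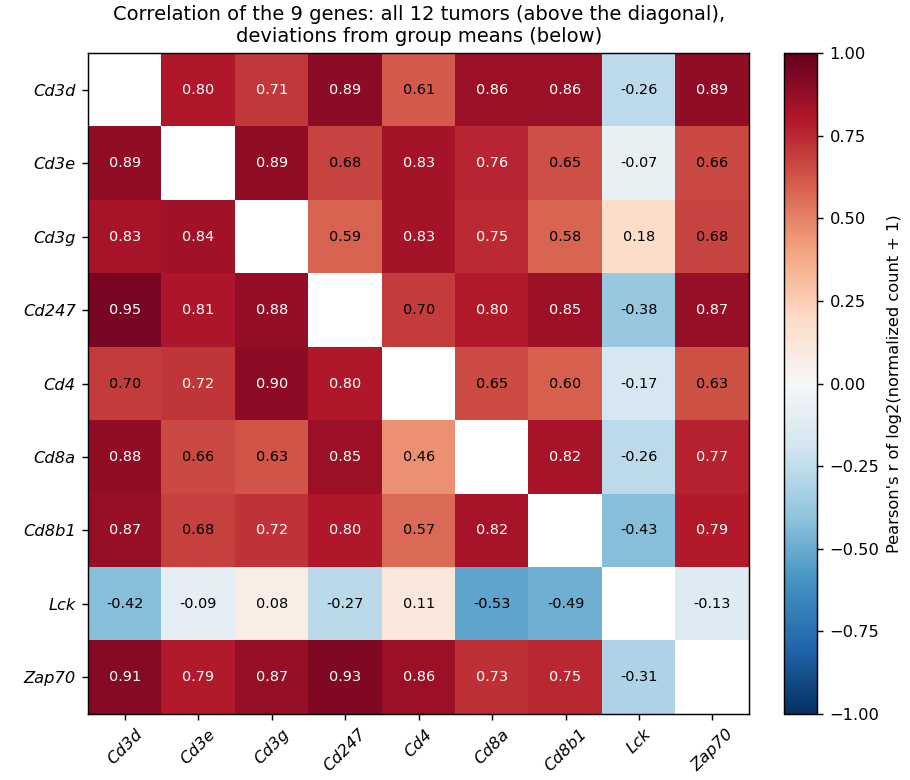
Pearson's r between the 9 genes for log2(normalized count + 1), over all 12 tumors above the diagonal and for deviations from group means below it. Pairs without Lck range from 0.58 to 0.89 above the diagonal, and pairs with Lck from -0.43 to 0.18.

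Ratios of genes within a tumor are nearly free of its scaling factor, and they were compared between the 3 tumors of a group and the other 9 with two-sided exact permutation tests (220 splits, smallest possible p = 0.0045), adjusted over 16 tests. Since each probe has its own efficiency, only differences of a ratio between tumors are read. Cd247 over Cd3e was lower in every combination tumor than in any other tumor, with Cd3e at the level of the lowest genes in the ADU-S100 tumor 1512. The log2 ratio was 0.11, -0.36 and -0.19 in combination tumors, and it ranged from 0.34 to 1.04 in vehicle, from 0.37 to 2.27 in ADU-S100 and from 0.82 to 1.91 in olaparib tumors. The difference was -1.29 (exact p = 0.00909, adjusted p = 0.145), and it ranged from -2.14 to -0.998 over the alternatives. Cd3e over Ptprc, which sets T cells against all leukocytes, was -3.22 ± 0.58 in combination tumors and -4.29 ± 0.91 in the other 9 (SD; exact p = 0.0955, adjusted p = 0.509), with 7 of the 9 below every combination tumor. Lck over Cd3e was 3.16 ± 0.52 in vehicle and 1.94 ± 1.08 in treated tumors (SD; exact p = 0.0909, adjusted p = 0.509), with 7 of the 9 treated tumors below every vehicle tumor.

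The balance of CD8 to CD4 did not separate the groups. Cd8a over Cd4 was -1.90 ± 0.13 in vehicle, -1.48 ± 0.97 in ADU-S100, -2.55 ± 0.88 in olaparib and -2.26 ± 0.47 in combination tumors (SD, n = 3 each), and the combination differed from the other 9 tumors by -0.28 (exact p = 0.582, adjusted p = 0.8), a difference that became 0.75 when the level of the lowest genes was subtracted. With each tumor left out it ran from -0.49 to -0.02. Cd8b1 over Cd8a, the ratio of the chains of one dimer, differed by -0.55 in combination tumors (exact p = 0.195, adjusted p = 0.684), but in 4 of the other 9 tumors (1269, 1510 and 1512 for Cd8b1, 1506 for Cd8a) it was set by a value no higher than the lowest genes. Zap70 over Cd3e was -0.11 ± 0.18 in combination tumors and 0.69 ± 1.26 in the other 9 (SD; exact p = 0.309, adjusted p = 0.706), and it was highest in ADU-S100 tumors, at 1.81 ± 1.10. Over the 8 ratios, 8 of the 48 pairs of groups did not overlap, and each of them had the combination as one side. The share over other gene ratios of the panel was not computed, and most of these ratios share Cd3e. The count is therefore a description and no sign of a trait of the combination. Beside the 3 pairs of Cd247 over Cd3e, these were Lck over Cd3e (1.02 to 1.78, against 2.66 to 3.70 in vehicle and 2.34 to 3.48 in ADU-S100 tumors), Zap70 over Cd3e and Cd3e over Ptprc against ADU-S100, and Cd8b1 over Cd8a against olaparib. These pairs were not tested singly. Of the 16 tests, 0 passed after adjustment and 1 was below 0.05 before it.

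**Figure D5:**
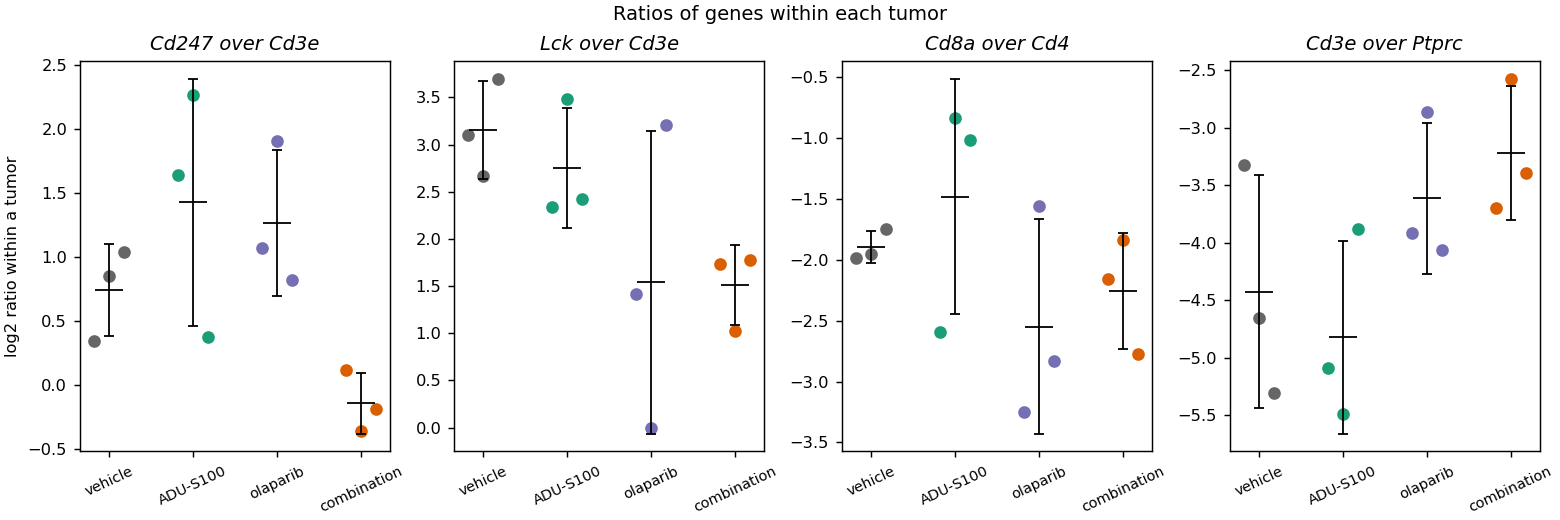
Log2 ratios of gene pairs within each tumor, from normalized counts plus 1, for the 3 tumors of each group, with the mean and SD in black. Cd247 over Cd3e lies at or below 0.11 in the 3 combination tumors and at or above 0.34 in the other 9. Lck over Cd3e in combination tumors lies below vehicle and ADU-S100 tumors and overlaps olaparib, Cd3e over Ptprc lies above ADU-S100 tumors, and Cd8a over Cd4 overlaps between all groups.

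Further gene lists of T cells were described in the same way between combination and vehicle, where 65.3% of all 689 genes were higher and the median was 0.21. At an unadjusted limma p below 0.05, 7.55% of all genes were higher. Of 15 other receptor signaling genes tested, 11 were higher in the combination, a share near that of all genes, with a median difference of 0.40, while 1 was higher at an unadjusted limma p below 0.05 and 0 passed. Of 22 accessory and costimulatory receptors tested, 21 were higher (median 0.70), 3 were higher and 1 lower at an unadjusted p below 0.05, and the smallest p belonged to Il2ra, the alpha chain of the IL-2 receptor (1.89 ± 0.48, SE, limma adjusted p = 0.278). Of 12 transcription factors of T cells, 10 were higher (median 0.29), with 0 below 0.05 before adjustment and the smallest p for Eomes (0.51 ± 0.47). Of 7 cytotoxic effector genes tested, all were higher (median 1.06), again with 0 below 0.05 before adjustment and the smallest p for Ctsw, a protease of cytotoxic lymphocytes (1.23 ± 0.72). These shifts were not particular to the combination. All 7 effector genes were also higher than in vehicle with ADU-S100 (median 1.23) and with olaparib (1.55). In the combination, 1 of the 7 was higher than with ADU-S100 and 1 higher than with olaparib. The accessory receptors had medians of 0.92 with ADU-S100 and 0.85 with olaparib.

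Markers of other cells were set beside them. NK cell receptor genes (15 tested) were higher in 11 cases, again near the 65.3% of all genes, with a median of 0.87. At an unadjusted p below 0.05, 3 were higher, against 7.55% of all genes, the first being Klrk1, which encodes NKG2D and is also carried by CD8 T cells (2.41 ± 0.61, limma adjusted p = 0.278). The NK list summed over its 23 measured genes to between 679 and 1372 normalized counts in vehicle, 1181 and 2031 in ADU-S100, 481 and 2316 in olaparib and 907 and 1160 in combination tumors. Ncr1 was at 10.4 to 17.8 normalized counts in vehicle and 21.9 to 73.4 in combination tumors, and no NK marker was at 0 in a whole group. Genes of leukocytes in general (7 tested) were higher in 6 cases with a median of 0.54, and summed to between 1602 and 2805 in vehicle and between 2825 and 3082 in combination tumors. Their sum lay between 1793 and 4238 in ADU-S100 tumors, a range that spans the combination, and between 2069 and 2681 in olaparib tumors. B cell markers (7 tested) had a median of 0.16, and the defining marker Ms4a1 had at most 25 recovered counts in any tumor. Dendritic cell markers (10 tested, 9 higher) had a median of 0.95 and neutrophil markers (9 tested, 9 higher) of 0.97, macrophage and monocyte markers (16 tested, 7 higher) of -0.07, epithelial markers (4 tested, 3 higher) of 0.26, and stromal and endothelial markers (13 tested, 0 higher) of -0.90. None of these genes passed after adjustment, and the part of a changed cell mixture in the values of the 9 receptor genes was not tested.

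The genes whose pattern was most like that of the 9 genes were ranked by Pearson's r with the mean of their standardized log2 values over the 12 tumors. The first 10 included Icos (r = 0.94), Ctsw (0.93), Slamf7 (0.91), Lta (0.91), Xcl1 (0.90), Sh2d1a (0.90), Batf (0.89), Pdcd1 (0.89) and Klrd1 (0.88). Icos is a costimulatory receptor of activated T cells, Pdcd1 encodes PD-1, and Sh2d1a encodes the adaptor SAP of T and NK cells. With all tumors brought to one median, these 9 genes had r between 0.61 (Klrd1) and 0.86 (Xcl1). For deviations from group means the first 10 were led by Tnfrsf14 (0.98), Ccl24 (0.98) and Il15 (0.97), and 1 gene, Sh2d1a, was on both lists. After median scaling these 3 genes had r of 0.78, 0.73 and 0.93 within groups.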

How the data were processed

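RNA of 12 tumors (4 groups of 3) was measured with the nCounter panel. The deposited values are normalized counts, a signal on a linear scale that the authors made in nSolver: quality control, correction for background, and normalization to positive controls and to housekeeping genes. Members and gene lists were chosen with earlier results of these data known. Counts were recovered from the steps between low values (tolerance 0.01, 12 values at a floor of 1 set to 0). A total counts probes, not cells. Genes that reached 20 in 3 or more tumors were fitted on the log2(normalized count + 1) scale by limma 3.58.1 (R 4.3.3), with a mean for each group. Fold changes on this scale understate those of low genes. P-values were adjusted by Benjamini-Hochberg over 689 genes (threshold 0.05). The fits were also run on simulated data. For limma each gene had the same spread in all tumors there, which does not show how the fit handles genes of few counts. Correlations used 100000 permutations, or all 1296 permutations within groups. Alternatives were a filter at 50 or none, a pseudocount of 10, median scaling, quantile normalization, an intensity trend, fits on 2 groups, the methods' t-test, number series (12 or 15) or log2 factor as a term, edgeR 4.0.16 with the authors' factors or TMM, and each tumor left out. Background subtraction and tumors with a factor below 1 were added after seeing the data. Genes outside the set are those with the smallest p of each list, the 10 most alike and defining markers; some that this rule names are not reported here. Figures were drawn with matplotlib 3.10.9. Promoter windows came from RefSeq (GRCm38.p6).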

Additional observations from a re-analysis of the deposited data

How the results depend on the processing

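The 9 genes had few counts and each group had 3 tumors, which limits every value. Under each alternative run, 0 of the genes passed after adjustment in the 6 comparisons and in the F test, except in the fit on tumors with a factor below 1, where 1 passed (Cd4 between combination and vehicle, 2.02). The tumors of that fit were chosen after the factors were seen, so this pass is no support. The median between combination and vehicle stayed between 1.03 and 1.91. With the number series as a term it was 1.44, and the median of the combination was 0.12 against ADU-S100 and 0.34 against olaparib. The causes of the changes below were not tested. No paired analysis was possible because the tumor numbers of the labels are unique to 1 tumor, so that no number is shared between groups.

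The median over the genes became -0.21 for ADU-S100 against vehicle under quantile normalization. For olaparib against vehicle it became 0.18 under quantile normalization, 0.10 with the log2 factor as a covariate and 0.0795 in tumors with a factor below 1. With the covariate it rose to 1.23 for combination against ADU-S100 and to 1.42 against olaparib, which was 1.14 after background subtraction and 1.72 in tumors with a factor below 1. With each tumor left out, the median against olaparib ran from -0.11 (without 1521) to 1.17 (without 1517), and the interaction from -0.90 to 0.24 (without 1517). The interaction was 0.10 under median scaling, 0.84 under quantile normalization, 0.93 with the covariate, 0.17 with edgeR and TMM and 0.52 after background subtraction.

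Under quantile normalization the ADU-S100 difference from vehicle turned to -0.49 for Cd3e, -0.39 for Cd3g, -0.17 for Cd4, -0.25 for Cd8a and -0.38 for Lck, and the olaparib difference to -0.28 for Cd3g and -0.00527 for Cd8a. With the covariate it turned to -0.24 for Cd3d and -0.16 for Cd3e in ADU-S100 tumors and to -0.61 for Cd3d and -0.15 for Zap70 in olaparib tumors. Against ADU-S100 the covariate gave 0.80 for Cd247, 0.76 for Zap70 and -0.19 for Lck, and against olaparib 0.60 for Cd247. In tumors with a factor below 1, olaparib against vehicle was -0.91 for Cd3d and -1.04 for Zap70, and combination against olaparib was 0.97 for Cd247. EdgeR with the authors' factors turned combination against olaparib to -0.30 for Cd3d and -0.31 for Zap70, and with TMM the ADU-S100 difference of Cd3e was -0.00707. Background subtraction made the latter -0.48. Lck against vehicle was -0.0928 (median scaling), -0.13 (quantile) and -0.26 (TMM) in the combination and -0.33 (median scaling) and -0.47 (TMM) with ADU-S100.

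With each tumor left out, Cd3d ran from -0.31 to 1.68 for olaparib against vehicle, from -0.21 to 0.48 for combination against ADU-S100 and from -0.69 to 1.29 against olaparib. In these last comparisons Cd247 ran from -0.79 to 0.14 and from -1.49 to 0.15, and Zap70 from -1.22 to 0.15 and from -1.02 to 1.23. Against olaparib, Cd4 ran from -0.19 to 0.40 and Cd8a from -0.0386 to 1.12. Lck ran from -0.0456 to 0.28 for combination against vehicle, from -0.0756 to 0.20 for ADU-S100 against vehicle and from -0.0874 to 0.19 for combination against ADU-S100.

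Among the ratios, vehicle against the treated tumors became 0.0124 for Cd8b1 over Cd8a and 0.0677 for Cd8a over Cd3e with a pseudocount of 10, and the latter 0.0255 after background subtraction, which made Cd8a over Cd4 0.75 in combination tumors. With each tumor left out, the vehicle differences ran from -0.38 to 0.16 for Cd8b1 over Cd8a, from -0.33 to 0.22 for Cd8a over Cd3e and from -0.26 to 0.10 for Cd247 over Cd3e, and the combination difference of Cd4 over Cd3e from -0.47 to 0.0466. The median correlation of the genes was 0.38 under median scaling and 0.44 after background subtraction.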
